A study of Mus musculus with 18 samples.

Results

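Differentiated 3T3-L1 cells that carry a RIPK3 knockout were compared with differentiated control 3T3-L1 cells by RNA sequencing. 3T3-L1 is a mouse fibroblast line that turns into fat cells under an adipogenic hormone cocktail, and it is a standard culture model of white adipogenesis. The comparison took 6 of the 18 libraries of the study, chosen by sample title: 3 titled J7RIPK3 and 3 titled J7CTL, called J7_RIPK3 and J7_CTL here. J7_RIPK3 cells were RIPK3-/- by title and differentiated, although their genotype field names MLKL-/-, and J7_CTL cells were the control genotype and differentiated. The undifferentiated J0_RIPK3 and J0_CTL cells, 3 libraries each, served to ask which differences were already there before differentiation. All groups come from the same parental line, and the labels do not say how the knockout was made, whether a group is 1 clone, what J7 counts, or whether libraries of a group are separate cultures. The p-values below therefore measure only the spread between these libraries, and a trait of the knockout line cannot be told apart from the loss of RIPK3.

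RIPK3 is a serine/threonine kinase of necroptosis, a lytic form of cell death. When death receptors, Toll-like receptors or the nucleic acid sensor ZBP1 are engaged and caspase-8 is inactive, RIPK3 assembles with RIPK1 through shared RHIM motifs and phosphorylates MLKL, which then permeabilises the plasma membrane. FADD, caspase-8 and its partner cFLIP, encoded by Cflar, hold this route in check. In adipocyte differentiation, PPARγ and C/EBPα switch on the genes of lipid uptake, triglyceride storage and adipokine secretion while proliferation stops and the fibroblast matrix programme is turned down.

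The deposited tables list only genes that passed the authors' threshold in at least 1 comparison, so the joined set of 12048 genes with counts in all 6 J7 libraries is preselected for change and shares of changed genes and adjusted p-values refer to that set. It holds between 92.6% and 96.6% of the reads of each library. Library totals were 24.0, 20.2 and 26.5 M reads in J7_RIPK3 and 24.1, 24.6 and 26.8 M reads in J7_CTL. Levels are given as CPM, the reads of a gene scaled to the library total. A gene was called when the edgeR quasi-likelihood test gave a Benjamini-Hochberg adjusted p under 0.05. J7_RIPK3 library 3 stood further from its group than any other J7 library. Its chi-square per degree of freedom over genes was 6.19 against library 1 and 4.78 against library 2, where the other 4 pairs within a group gave 2.77 to 3.47. Counts are given without it where they differ in a way that matters. Of the adipocyte markers fixed for this comparison, 10 of 10 were in the joined set. Their summed level was 16531 to 18509.8 CPM in J7_RIPK3 and 16344 to 17176 CPM in J7_CTL, so both groups carried the adipocyte programme. Dlk1, a preadipocyte marker, had 0 reads in all 6 libraries.

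The targeted gene was checked first. Ripk3 (chr14:55784995-55788865, minus strand, mm10) had 10.2, 10.8 and 11.7 CPM in J7_RIPK3 libraries, against 17.5, 19.2 and 18.2 CPM in J7_CTL libraries. All J7_RIPK3 libraries lay below all J7_CTL libraries, and Ripk3 fell by 0.73 on the log2 scale (SE 0.09, adjusted p = 2.44e-07), which left reads in every knockout library. Reads of a targeted gene can persist when a knockout acts on the protein. The level cannot check the label, because Ripk3 was also low in J7_MLKL (below) and its neighbours fell too. The 18 tested genes within 2 Mb distal to Ripk3 had a median log2 fold change of -0.41, with 1 higher and 14 lower. How much of the fall of Ripk3 is shared with that stretch was not tested. Undifferentiated cells had 15.9 ± 1.31 CPM in J0_RIPK3 and 18.2 ± 1.4 CPM in J0_CTL (log2 fold change -0.22, adjusted p = 0.0216). Mlkl, which encodes the executioner of necroptosis, had 32.3, 26.5 and 28.4 CPM in J7_RIPK3 libraries, against 25.4, 27.5 and 26.1 CPM in J7_CTL libraries. The groups overlapped and Mlkl was not called (log2 fold change 0.16, SE 0.07, adjusted p = 0.0502). It was called, on the higher side, under 4 of 15 alternative analyses.

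The genotype field of the labels is crossed between the differentiated knockouts: it names MLKL-/- for the samples titled RIPK3 and RIPK3-/- for those titled MLKL, and the titles are followed here. A pair of measurements bears on that conflict. In cells titled J7_MLKL, Mlkl averaged 15.1 ± 1.24 CPM in J7_MLKL, which is below both J7_RIPK3 and J7_CTL, whereas Ripk3 averaged 9.23 ± 2.4 CPM in J7_MLKL, close to J7_RIPK3. Over 95 chromosome 18 genes with counts in all 18 libraries, the median log2 ratio to the control was 0.25 in J7_RIPK3 and 0.23 in J0_RIPK3, whereas it was -0.66 in J7_MLKL and -0.38 in J0_MLKL, so on this chromosome the J7 cells had the sign of the J0 cells of the same title. In the same order the medians were -0.263, -0.091, -0.504 and -0.245 on chromosome 6 and -0.416, -0.202, -0.621 and -0.4 on chromosome 14 distal to Ripk3. There J7_RIPK3 lay nearer J0_MLKL than J0_RIPK3. On chromosome 5 (0.328, 0.28, 0.605 and 0.214) and chromosome 14 proximal to Ripk3 (0.16, -0.041, -0.785 and -0.196) it lay nearer J0_RIPK3, so the medians do not settle the conflict. Counts in the MLKL libraries exist only for genes that passed the authors' threshold in a comparison with MLKL cells. The joined genes held 29.4% of the reads of J0_MLKL library 1 and 54.5% of those of J7_MLKL library 1. These medians therefore rest on genes selected through the MLKL groups.

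The necroptosis genes moved in both directions. Of 14 tested members of the machinery list, Ripk3 included, 2 rose and 5 fell, where 29.6% of all tested genes rose and 29.5% fell. Casp8, the caspase that cleaves RIPK1 and RIPK3, had 85.5, 80.0 and 79.4 CPM in J7_RIPK3 libraries, against 78.9, 81.0 and 80.4 CPM in J7_CTL libraries. The groups overlapped (log2 fold change 0.04, SE 0.04, adjusted p = 0.405). Fadd, the adaptor of death receptors, averaged 13.1 ± 1.39 CPM in J7_RIPK3 and 14.2 ± 0.521 CPM in J7_CTL and was not called either (adjusted p = 0.299). Cflar rose slightly (log2 fold change 0.11, SE 0.04, adjusted p = 0.0181), a call that was lost under 4 of 15 alternative analyses. Pgam5, a mitochondrial phosphatase that binds the RIPK3 complex, rose (log2 fold change 0.60, SE 0.06, adjusted p = 8.53e-09), and it lies on chromosome 5, whose genes shifted upward as a whole (below). Tlr4, the lipopolysaccharide receptor, fell (log2 fold change -0.34, SE 0.05, adjusted p = 8.23e-06), as did the TNF receptor gene Tnfrsf1a (log2 fold change -0.29, SE 0.04, adjusted p = 5.61e-07). Ripk1 and Zbp1 did not have counts in all 6 libraries in the joined tables or did not pass the filter and were not analysed here.

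The test called 6600 of 11170 genes (59.1%), of which 3302 rose (29.6% of tested genes) and 3298 fell (29.5%) in J7_RIPK3. Counts of list members below are to be read against these shares. The libraries of the groups did not overlap for 62.5% of tested genes, so a lack of overlap is common here. Most differences were small. The median absolute log2 fold change of called genes was 0.34, and 382 genes rose (3.42%) and 336 fell (3.01%) by more than 1 on the log2 scale. Without J7_RIPK3 library 3, 3264 genes were called higher and 3224 lower. In undifferentiated cells 28.3% rose and 27.4% fell in J0_RIPK3. Of 2739 genes that rose at J7 and were tested at J0, 1333 (48.7%) also rose at J0, 323 fell at J0 and 1083 were not called at J0. Of 2875 genes that fell at J7, 1278 (44.5%) also fell at J0, 616 rose at J0 and 981 were not called. The difference between the J7 and the J0 effect was tested directly as an interaction over 12 libraries, and it was past the threshold for 4298 of 11027 genes (39%), 2028 with a J7 difference above the J0 difference (18.4%) and 2270 below it (20.6%). DESeq2 gave 2366 above and 1914 below, and library totals without TMM factors gave 1665 above and 2534 below, so which side held more genes depended on the analysis.

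**Figure D1:**
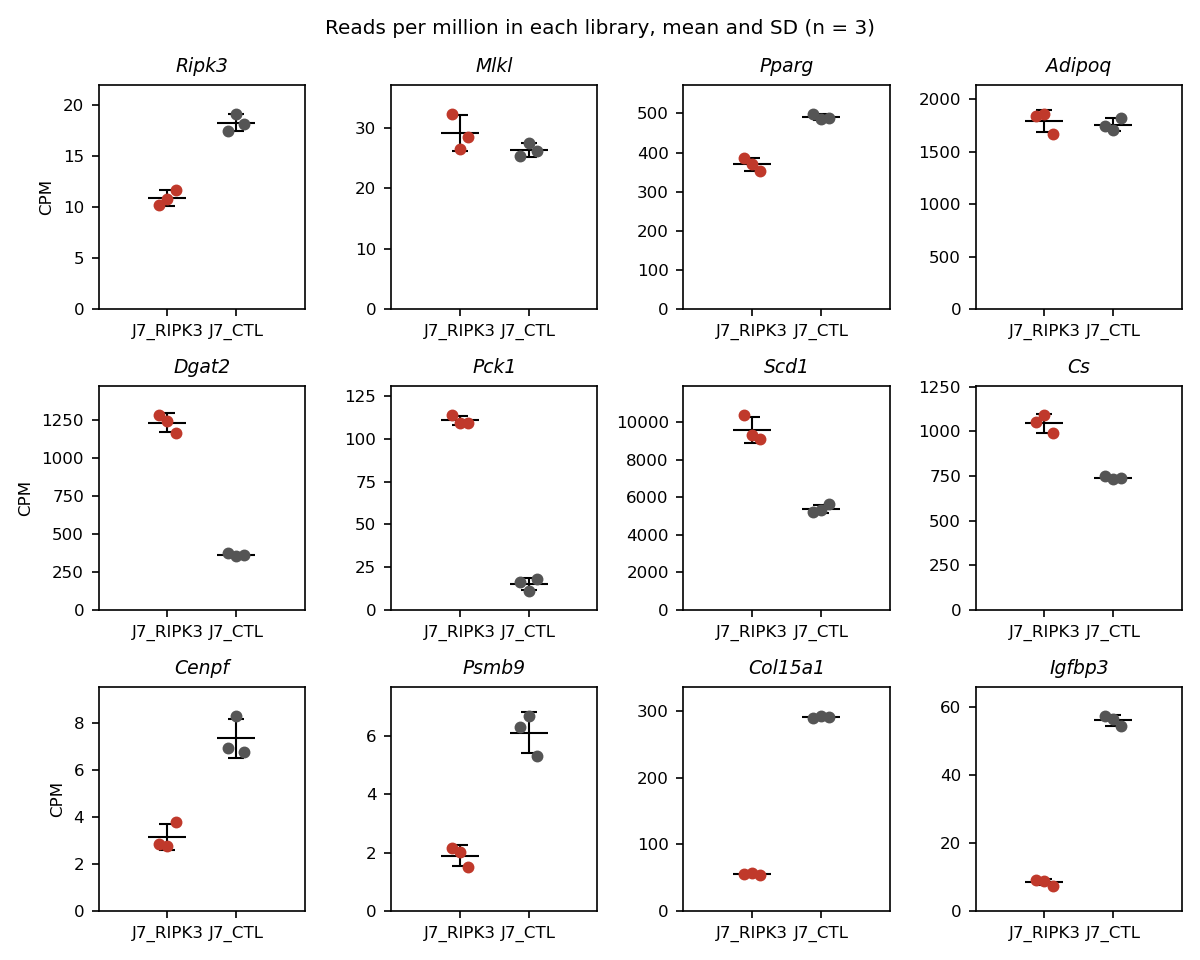
Level in CPM (linear axes from 0) of 12 genes in each of the 3 J7_RIPK3 libraries (red, left) and 3 J7_CTL libraries (grey, right), with the mean and SD. Dgat2, Pck1, Scd1 and Cs lie higher in all J7_RIPK3 libraries, Ripk3, Pparg, Cenpf, Psmb9, Col15a1 and Igfbp3 lie lower, and Mlkl and Adipoq overlap between the groups.

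The general adipocyte markers were close to each other in the 2 groups, while genes of triglyceride assembly and lipogenesis were higher in the knockout. Adipoq, which encodes adiponectin, had 1843, 1860.5 and 1669 CPM in J7_RIPK3 libraries, against 1740.1, 1704 and 1823 CPM in J7_CTL libraries. The groups overlapped, and Adipoq was not called (log2 fold change 0.04, SE 0.04, adjusted p = 0.34). Cebpa, a master regulator of adipogenesis, was not called either (log2 fold change -0.04, SE 0.04, adjusted p = 0.352). Pparg, the nuclear receptor that drives fat cell formation, had 387, 369.6 and 353 CPM in J7_RIPK3 libraries, against 499, 487 and 488 CPM in J7_CTL libraries, with no overlap, and fell (log2 fold change -0.40, SE 0.03, adjusted p = 1.76e-09). Genes on chromosome 6, which shifted downward (below), are not marked as such here, so this fall is not shown to be free of a chromosome shift. Cebpb, an early adipogenic factor, rose (log2 fold change 0.28, SE 0.07, adjusted p = 0.0015). Fabp4, the fatty acid binding protein of adipocytes, rose by only 0.11 on the log2 scale (adjusted p = 0.0109), and without J7_RIPK3 library 1 the value was 0.07 with adjusted p = 0.076. Plin1, the lipid droplet coat protein of mature adipocytes, rose (log2 fold change 0.12, SE 0.03, adjusted p = 0.0022), as did the insulin-responsive glucose transporter Slc2a4 (log2 fold change 0.30, SE 0.03, adjusted p = 1.75e-07). Lpl, the lipase that frees fatty acids from lipoproteins, rose (log2 fold change 0.39, SE 0.03, adjusted p = 2.91e-10), and so did the fatty acid translocase Cd36 (log2 fold change 0.41, SE 0.04, adjusted p = 1.24e-08), which lies on chromosome 5. Lep, which encodes leptin, averaged 0.983 ± 0.0929 CPM in J7_RIPK3 and 1.5 ± 0.25 CPM in J7_CTL and its fall (log2 fold change -0.61, SE 0.26, adjusted p = 0.0492) was lost under 11 of 14 alternative analyses, where adjusted p reached 0.162.

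Among 19 tested adipogenic transcription factors, 7 rose and 8 fell (median log2 fold change -0.04). The widest gap was Mlxipl, which encodes the glucose-sensing lipogenic factor ChREBP and lies on chromosome 5. It had 4.5, 4.8 and 5.29 CPM in J7_RIPK3 libraries, against 0.207, 0.162 and 0.224 CPM in J7_CTL libraries. No J7_CTL library came near the knockout (log2 fold change 4.60, SE 0.27, adjusted p = 3.45e-12, 24.6-fold higher in pooled reads). Ebf2, a factor of adipocyte precursors, rose (log2 fold change 0.69, SE 0.08, adjusted p = 9.64e-08), and so did Nr1h3, the liver X receptor that senses oxysterols (log2 fold change 0.33, SE 0.04, adjusted p = 8.2e-07). Klf5 (-0.83), Zfp423 (-0.54) and Cebpd (-0.48), which act in commitment and early adipogenesis, fell, and Klf5 lies on chromosome 14 distal to Ripk3.

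Triglyceride synthesis genes rose in 12 of 17 tested members and fell in 2, with a median log2 fold change of 0.35 where the median of all tested genes was 0.0011. Dgat2, the acyltransferase of the last step of triglyceride synthesis (chr7:99153658-99182719), had 1285, 1247 and 1162 CPM in J7_RIPK3 libraries, against 373, 354 and 363 CPM in J7_CTL libraries. That is 3.38-fold higher in pooled reads, with no overlap (log2 fold change 1.78, SE 0.04, adjusted p = 3.41e-20). Before differentiation the sign was the other way: Dgat2 had 6.38 ± 0.0565 CPM in J0_RIPK3 and 7.88 ± 0.892 CPM in J0_CTL, and the J7 difference exceeded the J0 difference by 2.09 (adjusted p = 3.23e-16). The gene of the other DGAT enzyme, Dgat1, fell slightly in J7_RIPK3 (log2 fold change -0.16, SE 0.04, adjusted p = 0.000401). Pck1, the cytosolic PEPCK that supplies glycerol 3-phosphate in fat cells, had 114, 109 and 109 CPM in J7_RIPK3 libraries, against 16.5, 11.2 and 18.3 CPM in J7_CTL libraries. Every knockout library was above every control library (7.2-fold in pooled reads, log2 fold change 2.86, SE 0.09, adjusted p = 2.78e-17), and Pck1 had no reads in the undifferentiated libraries of either genotype. Gpd1, which makes glycerol 3-phosphate from glycolysis and was among the most abundant changed transcripts, averaged 3078 ± 91.1 CPM in J7_RIPK3 and 1785 ± 130.0 CPM in J7_CTL (log2 fold change 0.80, SE 0.04, adjusted p = 2.37e-13). Mogat1, a monoacylglycerol acyltransferase, was a low transcript at 3.77 ± 0.681 CPM in J7_RIPK3 and 1.06 ± 0.206 CPM in J7_CTL and also rose (log2 fold change 1.83, SE 0.22, adjusted p = 3.21e-07).

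Fatty acid synthesis followed the same direction, with 16 of 19 tested genes higher and 2 lower (median 0.45). Scd1, the stearoyl-CoA desaturase that makes monounsaturated fatty acids, had 10384, 9303 and 9082 CPM in J7_RIPK3 libraries, against 5202, 5315 and 5639 CPM in J7_CTL libraries (log2 fold change 0.85, SE 0.04, adjusted p = 7.19e-14). This gap had a similar size before differentiation (log2 fold change 0.80 at J0), and the test of the difference between the effects did not pass the threshold (difference 0.04, adjusted p = 0.609). Thrsp, the lipogenic protein Spot14, had 232, 234 and 200.3 CPM in J7_RIPK3 libraries, against 65.7, 64.7 and 71.6 CPM in J7_CTL libraries, again with no overlap (log2 fold change 1.73, SE 0.05, adjusted p = 1.53e-17). Scd3 (log2 fold change 1.70, SE 0.07, adjusted p = 1.58e-14) and Elovl3, an elongase of saturated very long chain fatty acids in cold-exposed brown fat (log2 fold change 1.82, SE 0.10, adjusted p = 1.04e-12), rose as well. The members that fell were Fads1, the delta-5 desaturase (-0.44), and the elongase Elovl1 (-0.50).

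Of 9 tested lipid droplet genes, 4 rose and 3 fell. Cidea, which promotes lipid transfer between droplets and is typical of brown fat (chr18:67343564-67367794, mm10), had 70.6, 66.9 and 57.9 CPM in J7_RIPK3 libraries, against 2.11, 2.44 and 2.83 CPM in J7_CTL libraries. The groups were 26.2-fold apart in pooled reads, the largest positive log2 fold change under the naming rule (log2 fold change 4.73, SE 0.10, adjusted p = 3.41e-20). Cidea lies on chromosome 18, whose genes shifted upward as a whole. The droplet coat gene Plin2 (0.36) and the seipin gene Bscl2 (0.57) rose modestly, and Plin4 fell by 0.15. Genes of lipolysis and its control rose in 11 of 17 tested members and fell in 2. Mgll, which cleaves the last fatty acid from glycerol, averaged 78.2 ± 6.02 CPM in J7_RIPK3 and 31.1 ± 1.84 CPM in J7_CTL (log2 fold change 1.34, SE 0.06, adjusted p = 8.28e-15). The receptor gene Adora1, whose product inhibits lipolysis, rose at a low level (1.60).

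Several of the largest increases were in genes that act in fat cells or in glycogen storage. Car3, a carbonic anhydrase abundant in mature adipocytes, had 9.67, 15.0 and 14.2 CPM in J7_RIPK3 libraries, against 0.787, 0.568 and 0.858 CPM in J7_CTL libraries (log2 fold change 4.13, SE 0.21, adjusted p = 2.15e-13). Ces1d, a carboxylesterase that hydrolyses stored triglyceride, had 161, 164 and 139 CPM in J7_RIPK3 libraries, against 9.82, 8.44 and 9.88 CPM in J7_CTL libraries, and no library of one group reached the other (log2 fold change 4.05, SE 0.07, adjusted p = 7.51e-22). It was already higher before differentiation, at 25.0 ± 1.72 CPM in J0_RIPK3 and 5.75 ± 0.234 CPM in J0_CTL, and the J7 gap was wider (1.97, adjusted p = 1.63e-13). Glycogen synthase 2, Gys2 (3.63), and the liver-type glycogen phosphorylase Pygl (3.05) rose, and their J7_CTL levels were low. Gys2 had 14.7, 13.7 and 13.2 CPM in J7_RIPK3 libraries, against 1.2, 0.852 and 1.31 CPM in J7_CTL libraries. Pygl had 12.9, 11.6 and 10.6 CPM in J7_RIPK3 libraries, against 1.66, 1.62 and 1.01 CPM in J7_CTL libraries. Of 15 tested adipokines and secreted adipocyte factors, 8 rose and 3 fell. Among them Fgf21, a metabolic hormone (log2 fold change 2.69, SE 0.28, adjusted p = 3e-08), Nrg4, a fat-derived ligand of ErbB4 (log2 fold change 1.73, SE 0.11, adjusted p = 7.51e-12), and the lipocalin Lcn2 (log2 fold change 1.20, SE 0.08, adjusted p = 2.52e-11) rose, and Metrnl, a myokine and adipokine (-0.31), and Angptl4, an inhibitor of lipoprotein lipase (-0.23), fell. Other large increases were in the potassium channel gene Kcnj15 (3.91), the amino acid transporter gene Slc36a2, a surface marker of brown fat (2.98), and the zinc finger gene Zfp518b (3.38) and the diacylglycerol kinase gene Dgkq (3.21). The last pair lie on chromosome 5.

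Insulin signalling genes had no common direction, with 7 of 20 tested members higher and 5 lower. The adaptor gene Grb10, an inhibitor of insulin and IGF signalling, had 2.08, 1.54 and 1.43 CPM in J7_RIPK3 libraries, against 10.3, 10.8 and 8.5 CPM in J7_CTL libraries, with no overlap (log2 fold change -2.53, SE 0.16, adjusted p = 1.06e-11). It was lower to a like extent before differentiation (log2 fold change -2.25 at J0; difference of the effects -0.27, adjusted p = 0.276). Tbc1d4, the AS160 protein that controls glucose transporter traffic, fell (log2 fold change -0.71, SE 0.04, adjusted p = 1.2e-12), and it lies on the distal arm of chromosome 14.

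**Figure D2:**
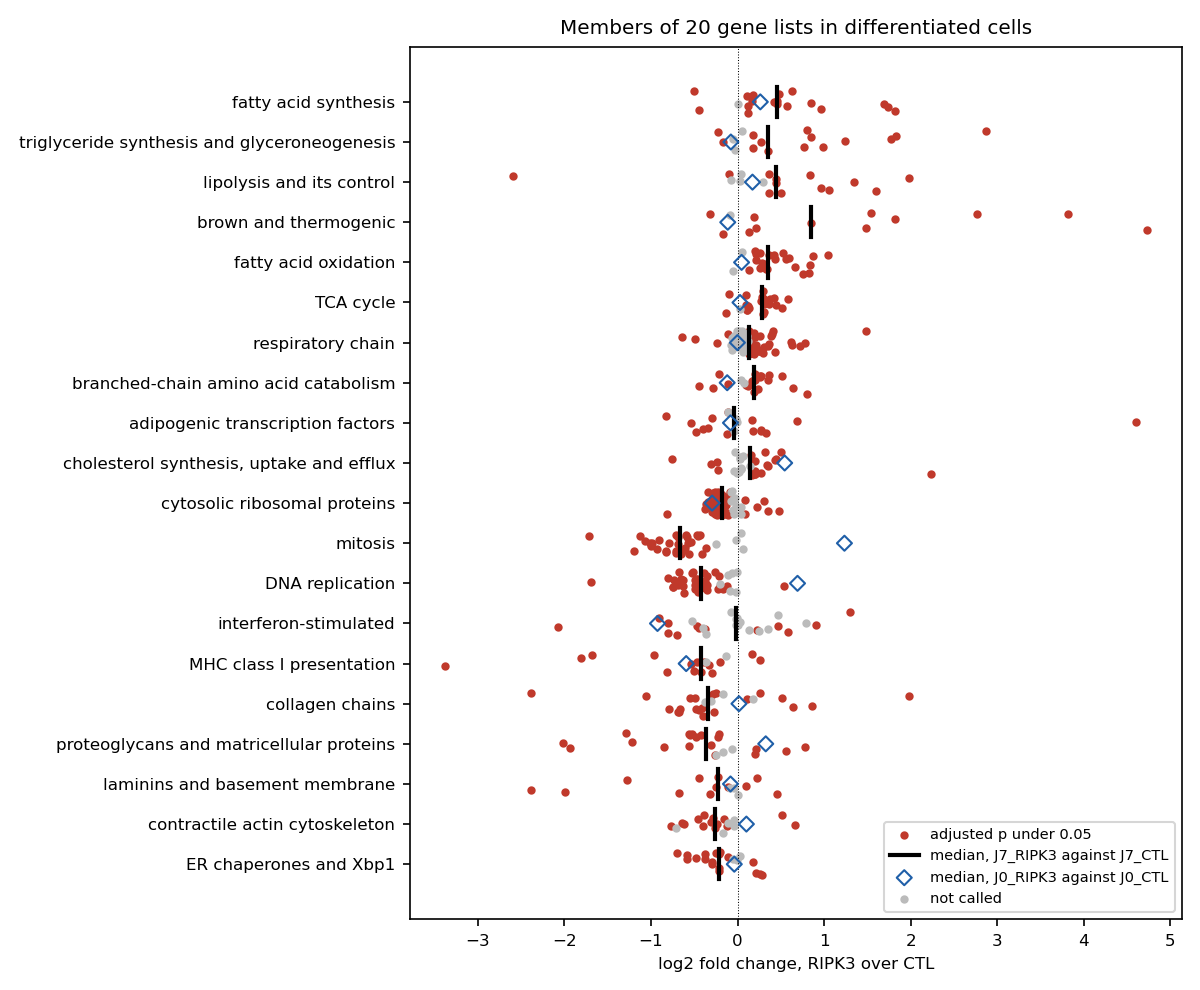
Log2 fold changes of J7_RIPK3 over J7_CTL for the tested members of 20 gene lists (points, red where adjusted p is under 0.05), with the J7 median of each list (black bar) and its J0 median (blue diamond). Mitosis and DNA replication have J7 medians of -0.67 and -0.42 and J0 medians of 1.24 and 0.69, and fatty acid oxidation lies to the right of 0 at J7.

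Mitochondrial oxidation genes were higher as a group and by small amounts. Fatty acid oxidation genes rose in 22 of 24 tested members, with 0 lower and a median log2 fold change of 0.35. At J0, 10 of 23 were higher, and the J7 difference lay above the J0 difference in 19 of 24 members and below it in 0. Of 19 members outside chromosomes 5, 14 and 18, 17 rose. Acaa2, the mitochondrial 3-ketoacyl-CoA thiolase (chromosome 18), had 230.3, 209.5 and 200.0 CPM in J7_RIPK3 libraries, against 106, 102 and 105 CPM in J7_CTL libraries (log2 fold change 1.05, SE 0.04, adjusted p = 5.29e-15). Acads, the short-chain acyl-CoA dehydrogenase (log2 fold change 0.87, SE 0.04, adjusted p = 3.47e-14), and Hadhb, a subunit of the trifunctional protein (log2 fold change 0.83, SE 0.04, adjusted p = 1.22e-14), lie on chromosome 5. Acaa1b, a peroxisomal thiolase on chromosome 9, had 46.4, 46.2 and 44.3 CPM in J7_RIPK3 libraries, against 4.19, 3.69 and 4.03 CPM in J7_CTL libraries (log2 fold change 3.53, SE 0.08, adjusted p = 1.42e-19), whereas at J0 it was low in both groups, at 0.502 ± 0.0616 CPM in J0_RIPK3 and 0.655 ± 0.132 CPM in J0_CTL. The peroxisomal catalase Cat rose (log2 fold change 0.80, SE 0.04, adjusted p = 2.14e-14).

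The TCA cycle list behaved alike, with 19 of 22 members higher and 2 lower (median 0.29). Cs, citrate synthase (chr10:128337734-128362479, mm10), had 1051, 1092 and 988 CPM in J7_RIPK3 libraries, against 751, 733 and 739 CPM in J7_CTL libraries, and all knockout libraries were above all control libraries (log2 fold change 0.51, SE 0.03, adjusted p = 3.03e-11). Mdh2, malate dehydrogenase on chromosome 5 (0.59), and Ogdh, a subunit of the oxoglutarate dehydrogenase complex (0.44), rose. The members that fell were 2 subunits of succinyl-CoA ligase, Suclg2 (-0.13) and Sucla2 (-0.10), and the call of Sucla2 was lost under 4 of 14 alternative analyses. Respiratory chain genes rose in 46 of 75 and fell in 4, with a median of 0.13; without J7_RIPK3 library 3, 59 rose and 4 fell. The mitochondrially encoded mt-Cytb, a subunit of complex III and the most abundant called transcript named here by FPKM, had 4039, 3934 and 4036 CPM in J7_RIPK3 libraries, against 2870.3, 2730.2 and 2861 CPM in J7_CTL libraries (log2 fold change 0.52, SE 0.03, adjusted p = 7.51e-12). Cox7a1, the heart-type and brown-fat-type subunit of complex IV, rose (log2 fold change 1.49, SE 0.17, adjusted p = 2.11e-07). Atp5k (0.78), Atp5j2 (0.72) and Cox6a1 (0.63) rose and are all on chromosome 5, and the ATP synthase subunit gene Atp5g1 fell (log2 fold change -0.49, SE 0.05, adjusted p = 1.96e-08).

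Branched-chain amino acid catabolism, which feeds lipogenesis in adipocytes, rose in 16 of 22 genes and fell in 4. At J0, 2 of these were higher and 13 lower, and the J7 difference lay above the J0 difference in 15. Mccc1, a subunit of methylcrotonyl-CoA carboxylase, averaged 130.4 ± 5.06 CPM in J7_RIPK3 and 75.4 ± 1.96 CPM in J7_CTL (log2 fold change 0.80, SE 0.04, adjusted p = 1.96e-13). Dbt, the E2 subunit of the branched-chain ketoacid dehydrogenase, rose (log2 fold change 0.64, SE 0.04, adjusted p = 9.98e-12), and the cytosolic transaminase Bcat1 fell (log2 fold change -0.45, SE 0.08, adjusted p = 5.75e-05). In glycolysis 12 of 20 genes rose and 3 fell, with Pfkfb3, which makes the activator of phosphofructokinase (0.85), and the lactate dehydrogenase gene Ldhb (0.67) among those that rose.

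Of 13 tested brown and thermogenic genes, 10 rose and 2 fell (median 0.85), and 5 of the 13 lie on chromosomes 5 and 18. Among the 8 elsewhere, 5 rose and 2 fell. Cox8b, a muscle and brown fat subunit of complex IV, had 20.4, 17.5 and 17.0 CPM in J7_RIPK3 libraries, against 3.15, 1.83 and 3.17 CPM in J7_CTL libraries (log2 fold change 2.76, SE 0.14, adjusted p = 1.96e-13). Otop1, a proton channel of brown fat, averaged 1.57 ± 0.538 CPM in J7_RIPK3 and 0.106 ± 0.0202 CPM in J7_CTL and rose (log2 fold change 3.82, SE 0.44, adjusted p = 1.81e-07); it lies on chromosome 5. Mb, myoglobin, which is expressed in muscle and brown fat, rose (log2 fold change 3.04, SE 0.22, adjusted p = 8.07e-11). Tbx15 (-0.32) and Letmd1 (-0.16) were the members that fell. The 3 brown adipocyte markers with counts in all 6 libraries, Cidea, Cox8b and Ppargc1a, summed to 85.1 to 99.5 CPM in J7_RIPK3 and 7.27 to 8.73 CPM in J7_CTL. Cidea, on chromosome 18, made up most of the J7_RIPK3 sum, and these markers are also members of the list above. Ucp1, the uncoupling protein that defines thermogenic fat, was not among the genes with counts in all 6 libraries, nor were Dio2 and Prdm16, so the identity of the cells as brown was not tested.

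Sterol genes differed less after differentiation than before it. Of 29 tested genes of cholesterol synthesis, uptake and efflux, 14 rose at J7 and 4 fell, whereas 26 rose at J0. The J7 difference lay below the J0 difference in 21 of 29 and above it in 3. Cyp51, the lanosterol demethylase on chromosome 5 (chr5:4081145-4104746, mm10), had 213, 199 and 185 CPM in J7_RIPK3 libraries, against 42.3, 45.7 and 40.4 CPM in J7_CTL libraries (log2 fold change 2.23, SE 0.05, adjusted p = 1.59e-19), the widest gap of the list. Scarb1, the HDL receptor, also on chromosome 5 (0.45), and Npc1, which exports cholesterol from lysosomes, on chromosome 18 (0.50), rose. The efflux transporter gene Abcg1 (-0.76) and the squalene synthase gene Fdft1 (-0.31) fell, and Fdft1 lies on the distal arm of chromosome 14.

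Cell cycle genes were lower in the differentiated knockout and higher in the undifferentiated one. Of 36 tested mitosis genes 32 fell in J7_RIPK3 and 0 rose (median -0.67), whereas at J0 35 of 35 rose (median 1.24). The J7 difference lay below the J0 difference for 35 of 35. DNA replication genes fell in 34 of 41 at J7 and rose in 38 of 39 at J0, and 38 of 40 had a J7 difference below the J0 difference. Without J7_RIPK3 library 3, 31 mitosis genes and 33 DNA replication genes fell. In bulk RNA fewer dividing cells cannot be told apart from less RNA per dividing cell.

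Kif11, the kinesin that separates the spindle poles, had 0.708, 0.149 and 0.529 CPM in J7_RIPK3 libraries, against 0.787, 2.23 and 1.75 CPM in J7_CTL libraries (log2 fold change -1.71, SE 0.40, adjusted p = 0.000963). Cenpf, a kinetochore protein, had 2.88, 2.77 and 3.81 CPM in J7_RIPK3 libraries, against 6.96, 8.32 and 6.79 CPM in J7_CTL libraries, with no overlap (log2 fold change -1.19, SE 0.15, adjusted p = 6.58e-07), against 31.7 ± 2.01 CPM in J0_RIPK3 and 12.6 ± 0.508 CPM in J0_CTL before differentiation. Mki67, the proliferation marker Ki-67, was picked after its values were seen and had 13.0, 14.8 and 15.0 CPM in J7_RIPK3 libraries, against 25.0, 26.4 and 25.5 CPM in J7_CTL libraries (log2 fold change -0.83, SE 0.08, adjusted p = 4.65e-09), against 87.3 ± 2.78 CPM in J0_RIPK3 and 33.7 ± 2.65 CPM in J0_CTL. All 3 J7_RIPK3 libraries of Cenpf and Mki67 lay below all J7_CTL libraries. The mitotic kinase Pbk fell (-1.13). Among replication genes, E2f2, a transcription factor of S phase entry (-1.70), the DNA ligase Lig1 (-0.81) and the licensing factor Cdc6 (-0.74) fell, and Rfc1, a clamp loader subunit on chromosome 5, was the member that rose (0.54). Cyclin D1, Ccnd1, had 20.2, 21.9 and 17.4 CPM in J7_RIPK3 libraries, against 38.2, 37.3 and 36.4 CPM in J7_CTL libraries (log2 fold change -0.91, SE 0.07, adjusted p = 2.31e-10), and 467 ± 5.5 CPM in J0_RIPK3 and 328 ± 6.64 CPM in J0_CTL.

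Promoters of mitotic genes carry the CHR element, bound by the DREAM and MYB-MuvB complexes, often next to CCAAT boxes bound by NF-Y, and the printed windows show both in genes that moved together. The sequences are RefSeq promoter windows of GRCm38.p6 (mm10), 250 bases before to 50 bases after the gene start, on the strand of the gene. Capitals mark TTTGAA or its reverse complement and CCAAT or its reverse complement, which do not overlap here. Kif11 is chr19:37376132-37376431 on the plus strand, Cenpf is chr1:189688037-189688336 on the minus strand and Mki67 is chr7:135716330-135716629 on the minus strand.
Kif11: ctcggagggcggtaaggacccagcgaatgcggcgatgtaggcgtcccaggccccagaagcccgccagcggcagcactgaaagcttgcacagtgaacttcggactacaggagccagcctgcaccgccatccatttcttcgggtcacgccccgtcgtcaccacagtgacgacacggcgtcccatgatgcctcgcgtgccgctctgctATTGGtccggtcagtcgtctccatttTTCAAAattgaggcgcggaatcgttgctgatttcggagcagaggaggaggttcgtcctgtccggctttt
Cenpf: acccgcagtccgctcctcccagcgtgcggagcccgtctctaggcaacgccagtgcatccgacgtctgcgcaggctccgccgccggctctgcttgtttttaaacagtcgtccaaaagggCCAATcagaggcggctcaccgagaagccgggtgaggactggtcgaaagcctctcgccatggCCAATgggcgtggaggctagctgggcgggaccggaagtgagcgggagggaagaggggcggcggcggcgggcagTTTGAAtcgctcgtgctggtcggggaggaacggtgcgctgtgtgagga
Mki67: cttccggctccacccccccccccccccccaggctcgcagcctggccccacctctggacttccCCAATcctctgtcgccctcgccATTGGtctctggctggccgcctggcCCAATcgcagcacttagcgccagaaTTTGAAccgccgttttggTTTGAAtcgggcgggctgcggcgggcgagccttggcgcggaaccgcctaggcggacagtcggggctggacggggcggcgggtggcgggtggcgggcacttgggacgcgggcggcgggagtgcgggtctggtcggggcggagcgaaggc
The Kif11 window holds 1 TTTGAA match and 1 CCAAT match, the Cenpf window 1 and 2, and the Mki67 window 2 and 3. Of the 36 mitosis genes, 29 had a window, and on either strand TTTGAA was found in 22 of them (75.9%), CCAAT in 23 (79.3%) and both in 20 (69.0%). Among all 32851 RefSeq windows of this length, 17.9% held TTTGAA, 37.4% held CCAAT and 7.0% held both, and among the 10517 windows of tested genes 12.2%, 38.3% and 5.0% did. Of 34 DNA replication genes with a window, TTTGAA was found in 5 (14.7%) and CCAAT in 21 (61.8%). The list shares count genes with a match in any of their windows, whereas the shares over all or tested genes count windows. These are matches of letters and not measured binding.

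**Figure D3:**
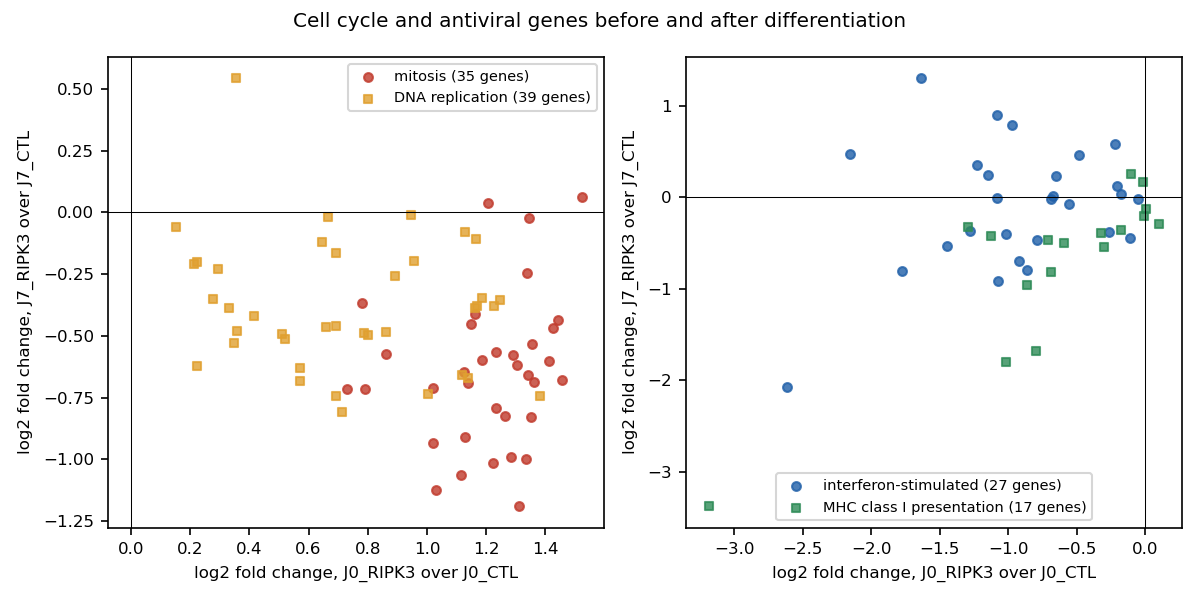
Log2 fold changes of RIPK3 over CTL in differentiated cells (vertical axis, J7) against undifferentiated cells (horizontal axis, J0), 1 point per gene tested in both, for 35 mitosis and 39 DNA replication genes (left) and 27 interferon-stimulated and 17 MHC class I genes (right). Mitosis genes lie right of 0 at J0 and mostly below 0 at J7, and interferon-stimulated genes lie left of 0 at J0 and on both sides of 0 at J7.

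Antiviral genes differed between stages as well. Interferon-stimulated genes rose in 5 and fell in 8 of 27 tested members at J7 (median -0.01), whereas 25 of 27 fell at J0 (median -0.92). The share that fell at J7 was near that of all tested genes (29.5%), whereas at J0 27.4% of all tested genes fell. The J7 difference lay above the J0 difference in 20. Ifih1, the double-stranded RNA sensor MDA5, had 1.46, 1.19 and 1.47 CPM in J7_RIPK3 libraries, against 5.06, 6.01 and 6.56 CPM in J7_CTL libraries (log2 fold change -2.07, SE 0.18, adjusted p = 2.2e-09). At J0 its log2 fold change was -2.61, and the test of the difference between the effects did not pass the threshold (0.55, adjusted p = 0.106). Parp14 (-0.91) and Usp18, the protease that removes ISG15 (-0.81), also fell. Ifi27 rose by 0.59 and Ifi27l2a by 0.90, and both were lower in the knockout before differentiation (-0.22 and -1.08 at J0). Of 13 nucleic acid sensor genes 6 fell and 0 rose, Ifi204 among those that fell (-0.80). Of 8 interferon-induced GTPase genes 4 fell, including Iigp1 (-1.89), Gbp7 (-1.03) and Gbp3 (-0.84), and Gbp2 rose (0.62); at J0 all 8 fell.

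MHC class I presentation genes were lower at both stages. Of 17 tested genes 13 fell and 2 rose at J7, and 12 fell at J0. Psmb9, the immunoproteasome subunit LMP2, had 2.17, 2.03 and 1.51 CPM in J7_RIPK3 libraries, against 6.3, 6.7 and 5.33 CPM in J7_CTL libraries, with no overlap (log2 fold change -1.68, SE 0.17, adjusted p = 2.79e-08). The class I genes H2-T23, which encodes Qa-1 (log2 fold change -1.81, SE 0.27, adjusted p = 7.44e-06), and H2-Q4 (log2 fold change -3.38, SE 0.30, adjusted p = 3.3e-09) fell further, and reads of these near-identical class I genes may be split between copies. Without J7_RIPK3 library 3 the log2 fold change of H2-Q4 was -4.47. The members that rose, the proteasome activator genes Psme1 (0.25) and Psme2 (0.16), lie on chromosome 14 close to Ripk3 on the proximal side. Interferon-responsive promoters carry the ISRE, in which GAAA repeats are bound by IRF and ISGF3 complexes. The windows of H2-T23 (chr17:36032652-36032951, minus strand) and Ifih1 (chr2:62646206-62646505, minus strand), again from RefSeq GRCm38.p6 and on the gene strand, are shown with matches to GAAANNGAA, a core of the ISRE, or its reverse complement in capitals.
H2-T23: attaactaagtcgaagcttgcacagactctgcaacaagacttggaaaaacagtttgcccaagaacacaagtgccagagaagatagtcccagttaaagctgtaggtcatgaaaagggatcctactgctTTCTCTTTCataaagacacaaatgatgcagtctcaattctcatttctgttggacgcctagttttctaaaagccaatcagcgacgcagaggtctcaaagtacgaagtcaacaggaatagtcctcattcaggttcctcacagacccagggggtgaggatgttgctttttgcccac
Ifih1: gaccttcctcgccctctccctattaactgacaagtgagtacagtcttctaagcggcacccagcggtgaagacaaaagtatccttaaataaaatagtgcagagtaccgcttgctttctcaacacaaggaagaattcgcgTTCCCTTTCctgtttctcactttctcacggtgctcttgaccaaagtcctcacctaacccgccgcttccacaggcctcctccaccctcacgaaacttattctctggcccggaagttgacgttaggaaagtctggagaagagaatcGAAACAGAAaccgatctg
The H2-T23 window holds 1 match and the Ifih1 window 2. GAAANNGAA was found on either strand in 12 of 19 interferon-stimulated genes with a window (63.2%) and 5 of 15 MHC class I genes (33.3%), in 8.6% of all 32851 windows and in 7.1% of the windows of tested genes.

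Collagen, basement membrane and proteoglycan genes fell more often than they rose in the knockout, and elastic fibre genes were near balance. Collagen chains fell in 16 of 26 tested genes and rose in 6, whereas at J0 6 fell and 11 rose. Col15a1, the basement membrane collagen XV, had 55.6, 56.7 and 54.0 CPM in J7_RIPK3 libraries, against 291, 293 and 291 CPM in J7_CTL libraries, a narrow and separate pair of groups (log2 fold change -2.38, SE 0.04, adjusted p = 6.4e-22). Col1a2, a chain of the main fibrillar collagen, averaged 1908 ± 29.6 CPM in J7_RIPK3 and 3322 ± 48.3 CPM in J7_CTL (log2 fold change -0.79, SE 0.03, adjusted p = 3.06e-15). Col8a1 fell by 1.06 at J7 but was higher at J0 (1.84; difference of the effects -2.90, adjusted p = 9.76e-13). Col27a1 (log2 fold change 1.97, SE 0.06, adjusted p = 3.31e-17) and Col11a2 (0.64) rose. Basement membrane genes fell in 9 of 15 and rose in 3. Nid2, the linker protein nidogen 2, had 15.5, 20.5 and 18.2 CPM in J7_RIPK3 libraries, against 74.5, 72.4 and 71.2 CPM in J7_CTL libraries, 4.04-fold lower in pooled reads (adjusted p = 2.34e-16), and it lies on chromosome 14 proximal to Ripk3. The laminin chain gene Lama5 fell too (-1.28).

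Small proteoglycans and matricellular proteins fell in 15 of 22 and rose in 4. Tnc, tenascin C, had 4.71, 4.01 and 4.04 CPM in J7_RIPK3 libraries, against 15.1, 19.7 and 14.7 CPM in J7_CTL libraries (log2 fold change -1.94, SE 0.13, adjusted p = 1.64e-11), and the leucine-rich proteoglycan genes Podn (-2.02) and Fmod (-1.29) fell. Spp1, osteopontin (0.78), on chromosome 5, and Lum, lumican (0.56), rose. Elastic fibre and collagen crosslinking genes rose in 7 and fell in 8 of 21 (median 0.02). Of these the microfibril genes Fbn1 (log2 fold change -1.14, SE 0.07, adjusted p = 3.91e-12) and Mfap5 (-2.11) fell, and Ltbp3, which stores latent TGF-beta, rose (0.61). Metalloproteases and their inhibitors rose in 4 and fell in 7 of 12. Among them Timp3 fell (log2 fold change -1.82, SE 0.27, adjusted p = 6.21e-06), the collagenase gene Mmp13 fell (-0.85), and Mmp11, stromelysin 3, rose (log2 fold change 1.10, SE 0.04, adjusted p = 3.79e-15). Contractile cytoskeleton genes fell in 12 of 19 and rose in 2; Flna (-0.64) and Acta2 (-0.62) fell and the muscle intermediate filament gene Des rose (0.67). The summed level of 8 preadipocyte and fibroblast markers was 909.9 to 934 CPM in J7_RIPK3 and 1136 to 1152 CPM in J7_CTL. Of 6 tested markers 2 rose and 4 fell. Col1a1 and Postn among them are also members of the matrix lists above, so the sum is not separate from those lists. The part of such cells in the lower matrix genes was not tested.

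Of 14 tested TGF-beta and BMP ligands and antagonists, 3 rose and 6 fell. Nog, the BMP antagonist noggin, had 1.46, 0.792 and 0.868 CPM in J7_RIPK3 libraries, against 8, 7.75 and 8.13 CPM in J7_CTL libraries, with no overlap (log2 fold change -2.91, SE 0.18, adjusted p = 1.03e-11). Gdf10, a TGF-beta family ligand on chromosome 14, fell by 3.49, and the activin subunit gene Inhbb (1.13) and the BMP antagonist gene Chrdl1 (0.43) rose. In the IGF system 1 rose and 7 fell of 12 genes. Igfbp3, an IGF-binding protein, had 9.21, 8.77 and 7.44 CPM in J7_RIPK3 libraries, against 57.5, 56.6 and 54.4 CPM in J7_CTL libraries (log2 fold change -2.72, SE 0.07, adjusted p = 1.66e-18). The IGF-binding-protein protease gene Pappa fell (-1.34) and Igf1 rose (0.41). Of 7 Wnt antagonists and targets 1 rose and 4 fell, with the target and effector gene Lef1 (-1.32) and the antagonist gene Dkk2 (-2.82) lower. Of 3 Wnt ligands Wnt5a, on chromosome 14 proximal to Ripk3, rose (0.86). Without J7_RIPK3 library 1 the log2 fold change of Dkk2 was -3.45. Preadipocyte and progenitor genes were balanced, with 6 higher and 6 lower of 18. Thy1, a surface marker of fibroblasts, fell and averaged 8.43 ± 0.68 CPM in J7_RIPK3 and 24.1 ± 1.12 CPM in J7_CTL (log2 fold change -1.50, SE 0.08, adjusted p = 1.32e-12). Of the repressors of adipogenesis in that list, Gata2 (-1.66) and Zfp521 (-0.79) fell and Gata3 rose (1.01).

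Ribosomal protein genes fell by small amounts, and stress genes moved in both directions. Cytosolic ribosomal protein genes fell in 55 of 71 and rose in 6 (median -0.18), and at J0 64 fell. The number that rose was 3 when any 1 of J7_RIPK3 libraries 1 and 2 and J7_CTL libraries 2 and 3 was left out. Of 63 members outside chromosomes 5, 14 and 18, 1 rose and 53 fell, and Rpl5 (0.30) and Rpl21 (0.35), which rose, are on chromosome 5. Rps4x (log2 fold change -0.36, SE 0.03, adjusted p = 3.78e-09) and Rps12 (-0.37) fell. Reads of these genes may be shared with processed pseudogenes. Endoplasmic reticulum chaperone genes fell in 14 of 21 and rose in 4, with Xbp1, the transcription factor of the unfolded protein response, at 365 ± 11.5 CPM in J7_RIPK3 and 595 ± 7.12 CPM in J7_CTL (log2 fold change -0.69, SE 0.03, adjusted p = 7.47e-14) and the disulfide isomerase gene Pdia4 at -0.58 on the log2 scale. In the integrated stress response 15 of 26 rose, among them Ddit3, which encodes CHOP (0.58), and Chac1 (0.63), and 7 fell. Targets of p53 rose in 11 of 21 and fell in 4. Mdm2, the ubiquitin ligase that degrades p53, had 1388, 1438 and 1472 CPM in J7_RIPK3 libraries, against 721, 745 and 743 CPM in J7_CTL libraries (log2 fold change 0.97, SE 0.04, adjusted p = 1.01e-15), and Gdf15, a stress cytokine, averaged 10.4 ± 0.943 CPM in J7_RIPK3 and 3.11 ± 0.826 CPM in J7_CTL (log2 fold change 1.75, SE 0.15, adjusted p = 1.26e-09). Clock genes rose in 12 of 17 and fell in 3, with the output genes Hlf (2.77) and Dbp (0.81) higher and Npas2 lower (-2.97), and the labels do not give the hour of harvest.

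The largest decreases were in genes of varied function, and some were present before differentiation. Adcy1, an adenylate cyclase stimulated by calmodulin (chr11:7063489-7178506, mm10), had 0 reads in all 3 J7_RIPK3 libraries, against 7.51 CPM over the J7_CTL libraries pooled. Taking 3 reads over the group as the limit that a count of 0 allows, it was at least 177-fold lower. At J0 it averaged 0.0416 ± 0.0406 CPM in J0_RIPK3 and 5.82 ± 0.523 CPM in J0_CTL, and 0.447 ± 0.0266 CPM in J7_MLKL. Dmd, dystrophin on the X chromosome, had 5.5, 3.71 and 4.61 CPM in J7_RIPK3 libraries, against 49.0, 49.8 and 45.0 CPM in J7_CTL libraries (log2 fold change -3.35, SE 0.09, adjusted p = 4.89e-18), and a like gap at J0 (log2 fold change -3.30; difference of the effects -0.04, adjusted p = 0.807). Sp140, a chromatin reader of immune cells, had 0.667, 0.248 and 0.755 CPM in J7_RIPK3 libraries, against 6.59, 7.63 and 8.32 CPM in J7_CTL libraries (log2 fold change -3.68, SE 0.23, adjusted p = 8e-12), with a log2 fold change of -3.31 at J0. The synaptic liprin gene Ppfia2 (-2.99) and Vstm2a (-2.83) fell at J7, and at J0 their log2 fold changes were -2.27 and -2.02. Rtl3 (-2.76) and the epidermal gene Dmkn (-2.97) fell at J7 and were not tested at J0. Sdr42e1 fell by 2.92, further than at J0 (log2 fold change -1.53; difference of the effects -1.39, adjusted p = 0.00382). Of 3 tested simple epithelial keratin genes 2 fell and 0 rose, and Krt18 was not called. Krt8 had 2.17, 2.23 and 2.08 CPM in J7_RIPK3 libraries, against 15.5, 16.2 and 14.5 CPM in J7_CTL libraries (log2 fold change -2.82, SE 0.12, adjusted p = 1.47e-14). Krt19 fell by 2.69, also further than at J0 (log2 fold change -1.16, difference of the effects -1.53, adjusted p = 0.0101). The 3 epithelial markers with counts summed to 19.1 to 21.2 CPM in J7_RIPK3 and 41.5 to 47.5 CPM in J7_CTL, while Epcam and Cdh1, which define epithelium, were not among the genes with counts in all 6 libraries. Among the most abundant changed transcripts, Agt, angiotensinogen, averaged 1306 ± 84.9 CPM in J7_RIPK3 and 2115 ± 39.6 CPM in J7_CTL (log2 fold change -0.68, SE 0.04, adjusted p = 5.07e-13), and Mif, a cytokine and tautomerase, rose (0.51).

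Whole chromosomes differed between the lines. Genes of chromosome 5 had a median log2 fold change of 0.41 over 817 tested genes, with 640 higher (78.3%) and 48 lower (5.88%). On chromosome 18 the median was 0.31 over 304 genes, with 217 higher (71.4%) and 19 lower (6.25%). On chromosome 6 the median was -0.20 over 611 genes, with 63 higher and 337 lower, and on chromosome 14 it was -0.21 over 393 genes, with 66 higher and 204 lower. The same 4 chromosomes shifted the same way at J0, with medians of 0.26 on chromosome 5, 0.20 on chromosome 18, -0.09 on chromosome 6 and -0.14 on chromosome 14. Relative to the J7_CTL mean, the median of chromosome 5 was 0.38, 0.38 and 0.36 in the 3 J7_RIPK3 libraries, against 0.007, -0.004 and -0.003 in J7_CTL libraries. The chromosome medians of the J7_RIPK3 and J7_CTL libraries did not overlap on 18 of 20 chromosomes, these 4 among them, so a lack of overlap does not set the 4 apart (exact two-sided permutation p = 0.1, the smallest that 3 against 3 allows). Gene groups above hold members of these chromosomes, and how much of a gene's difference comes with its chromosome was not tested. Named genes on chromosome 6 are not marked as such above. Leaving out chromosomes 5, 14 and 18, but keeping chromosome 6, 2660 of 9656 genes rose and 2710 fell.

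**Figure D4:**
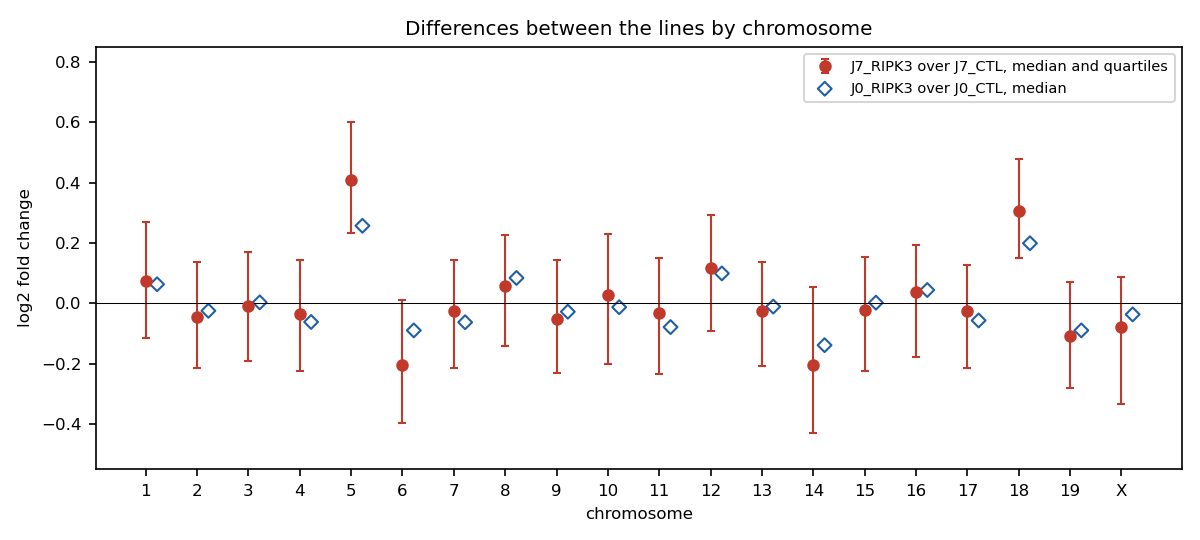
Median log2 fold change of J7_RIPK3 over J7_CTL by chromosome with quartiles over genes (red), and the J0_RIPK3 over J0_CTL median (blue diamonds). Chromosomes 5 and 18 lie above the others at 0.41 and 0.31, and chromosomes 6 and 14 lie below at -0.20 and -0.21.

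Chromosome 14, which carries Ripk3, was not shifted along its whole length. The 209 tested genes proximal to Ripk3 had a median of -0.01, with 59 higher and 61 lower, and the 183 genes distal to it had a median of -0.41, with 7 higher and 142 lower. The 35 tested genes within 2 Mb on the proximal side had a median of 0.08, with 16 higher and 7 lower, the 19 genes from 2 to 5 Mb proximal had a median of -0.11, with 1 higher and 9 lower, and the 18 within 2 Mb on the distal side had a median of -0.41, with 1 higher and 14 lower. Of the genes nearest to Ripk3 on the proximal side, Nop9 (-0.31), Tinf2 (-0.22) and Tm9sf1 (-0.53), given for their position, fell as well. Nedd8 (0.12), between Tinf2 and Tm9sf1, and Ipo4 (0.15), next beyond Tm9sf1, rose, so the edge of the lower stretch was not placed. The lower level continued to the end of the chromosome, with a median of -0.35 over 77 genes more than 20 Mb distal. At J0 the distal genes had a median of -0.23 over 163 genes and the proximal genes -0.03 over 175 genes. Over the genes with counts in all 18 libraries, 39 distal genes had a median log2 ratio to J7_CTL of -0.42 in J7_RIPK3 and -0.62 in J7_MLKL, and 35 proximal genes had 0.16 in J7_RIPK3 and -0.79 in J7_MLKL. J7_RIPK3 and J7_MLKL share the J7_CTL libraries in these values. The genes were also selected through the MLKL comparisons (above), and their proximal median in J7_RIPK3 differs from the -0.01 of the 209 tested genes.

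**Figure D5:**
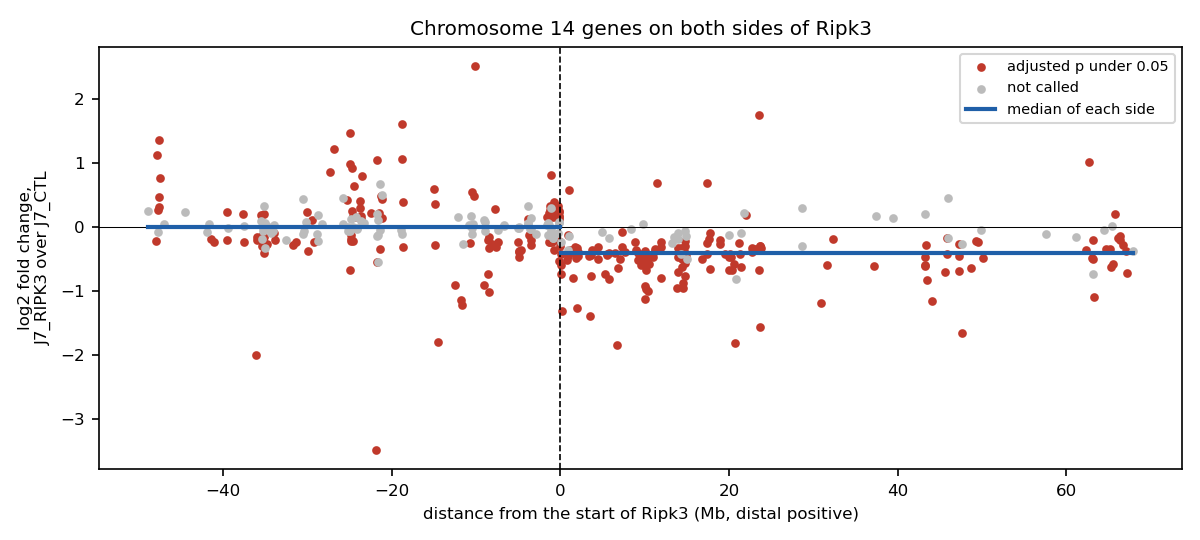
Log2 fold change of J7_RIPK3 over J7_CTL (vertical axis) of the tested chromosome 14 genes against their distance from the start of Ripk3 in Mb (horizontal axis, distal positive), red where adjusted p is under 0.05. The median is -0.01 on the proximal side and -0.41 on the distal side (blue lines), and calls in both directions are seen on the proximal side.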

How the data were processed

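RNA was sequenced by the authors from 3T3-L1 cells. The submitters' processing notes list mm10 as the build and, as tools, DESeq2, featureCounts 1.5.0-p3, HISAT2 and FastQC 0.11.9; whether counting used strand is not given in the sources used here, so antisense and overlapping genes are uncertain. Per the file headers, the authors deposited raw read counts, normalised counts (signal), FPKM, log2 fold changes and p-values with adjusted p-values per gene. The deposited gene length and coordinates were used as annotation.

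Counts of the 6 J7 libraries were joined by gene identifier over 7 comparison tables; 88950 repeated counts were compared and 0 differed. Library totals were recovered from the deposited counts, FPKM and gene length. edgeR 4.0.16 (R 4.3.3) with TMM factors, filterByExpr and quasi-likelihood F tests was run on J7_RIPK3 against J7_CTL, fitted on all joined genes with Benjamini-Hochberg adjustment, and the interaction with J0 on 12 libraries. CPM uses library totals without TMM. Fold changes of pooled reads use library totals. The SE is the log2 fold change divided by the square root of F. DESeq2 1.42.0 and the other alternatives are in the closing section. In data simulated for J7_RIPK3 against J7_CTL with 11158 genes tested, 64 of 100 genes changed by 0.5 on the log2 scale and 99 of 100 changed by 1 were called with the right sign, with 11 false calls. The simulation gave all genes the same fixed dispersion, not estimated from these libraries, and changed far fewer genes than were called here. Its shares therefore do not measure how many changes were missed in the real data. Promoter windows came from RefSeq tables of GRCm38.p6.

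Genes were named by rule: the necroptosis core; the 12 largest changes per direction with at least 5 CPM in the higher group and no overlap; up to 3 examples per direction of each of 48 gene lists with at least 1 CPM; 10 adipocyte markers; 6 abundant called genes; and genes at 0 reads in one group. A few genes that the rule names are not reported here. Members, lists and tests were chosen with earlier results of these data known. The authors' deposited table lists 5696 genes for this comparison (2763 higher, 2933 lower), of which 5630 were tested here and 5625 called in the same direction. Those genes were listed because they passed the authors' test on the same counts, so the overlap is not separate support.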

Additional observations from a re-analysis of the deposited data

Results flagged for a closer look

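Groups of 3 libraries were not tested gene by gene for an outlying library. What is listed here are named genes whose RIPK3 effect differed between differentiated and undifferentiated cells. Of 144 named genes tested at both stages, 113 had an interaction past adjusted p = 0.05, against 39% of all genes tested, where the named genes were chosen largely for a large J7 difference, and those with a difference over 1 on the log2 scale follow, each as the J7 difference minus the J0 difference.

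Among lipid and secreted-factor genes the difference was 3.94 for Acaa1b, 2.22 for Nrg4, 2.09 for Dgat2, 1.97 for Ces1d and 1.11 for Mgll. Zfp518b and Dgkq, both on chromosome 5, gave 1.70 and 1.67.

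Cell cycle genes gave negative values, -2.50 for Cenpf, -2.18 for Mki67, -2.16 for Pbk, -2.12 for Cdc6, -1.52 for Lig1 and -1.39 for Ccnd1. Interferon-induced genes gave positive values, 1.99 for Ifi27l2a, 1.83 for Gbp2 and 1.13 for Gbp3.

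Matrix genes gave -2.90 for Col8a1, 1.77 for Col27a1, -1.32 for Nid2, -1.73 for Mfap5, 1.07 for Podn, -1.72 for Tnc, -1.93 for Fmod, -1.30 for Timp3, -2.17 for Mmp13 and 1.07 for Mmp11. Signalling genes gave -1.77 for Nog, -1.86 for Igfbp3, -1.97 for Dkk2, -1.45 for Chrdl1 and -1.50 for Gata2.

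The rest were 1.39 for Des, 1.12 for Ddit3, 1.04 for Chac1, -1.53 for Krt19 and -1.39 for Sdr42e1.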

How the results depend on the processing

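Named genes kept the sign of their log2 fold change under every alternative run, and 166 of 174 also kept their side of the threshold under all of the alternatives they could be fitted in (up to 16). The number of called genes, 6600, lay between 5315 and 6677 under the other normalisations, filters, tables and tests and the 12-library fit, and between 6057 and 6488 when each library was left out. DESeq2 called 6102. Requiring an absolute log2 fold change over 1 as well left 718. With library totals and no TMM factor, 3096 genes were higher and 3396 lower. Leaving out chromosomes 5, 14 and 18, an alternative chosen after seeing the data, left 5370 called. Replicate numbers did not pair the samples, since the correlations of deviations were 0.008, -0.033 and 0.013 over the 3 numbers. The replicate block gave 6557 called genes, and for Ripk3 a log2 fold change of -0.73, against -0.80 to -0.67 when each library was left out. The interaction count, 4298, was 4285 with the replicate block, 4280 with DESeq2 (2366 above and 1914 below), 4199 with library totals (1665 above and 2534 below) and 3982 to 4185 when each of 12 libraries was left out. Of 53 list counts of at least 5, 43 stayed within 1.5 times under every alternative. With genes joined from the other tables alone, which tests fewer genes, the lower mitosis genes were 21, lower adipogenic factors 5, lower nucleic acid sensors 3, higher interferon-stimulated genes 3 and higher cyclases and phosphodiesterases 3. Without chromosomes 5, 14 and 18 the higher brown genes were 5, higher sterol genes 9, higher elastic fibre genes 3 and lower mitochondrial ribosomal genes 3. Higher cytosolic ribosomal genes were 1 to 3 under 8 alternatives. The interaction counts of 6 lists given above held under both scalings, but for branched-chain amino acid genes, at 16 with DESeq2 and 13 with library totals. Low-count genes limit precision. In simulated data a log2 change of 0.5 was missed more often than one of 1, but the dispersion there was not estimated from these libraries. No low-count genes were among those changed there. The SE and p-values cover the spread between these libraries, and the floor of Adcy1 covers counting error only.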
